A study of Neurospora crassa with 6 samples.

Results

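The genes described here are 7 of the 9730 genes whose transcripts were sequenced in the mould Neurospora crassa, grown in liquid medium. They were taken by locus tag: the mating type genes mat A-1 (NCU01958), mat A-2 (NCU01959) and mat A-3 (NCU01960), the pheromone precursor gene ccg-4 (NCU02500), the pheromone receptor genes pre-1 (NCU00138) and pre-2 (NCU05758), and fmf-1 (NCU09387), a regulator of fertility. All 7 tags were in the deposited table, and all 7 have a symbol in the RefSeq gene table of assembly NC12. The study set 3 cultures of a prd-2 (period-2) mutant, strain 1810 (ras-1bd, with prd-2 disrupted by the barR marker, MAT A), beside 3 cultures of a control, strain 328-4 (ras-1bd, MAT A), to learn what the loss of this clock gene does to transcripts. All 6 cultures, the control ones included, therefore carry the ras-1bd allele, which makes the conidiation rhythm visible, and mating type A. Each was started from a mycelial disc and then shaken for 48 h under constant light, at 25 °C, in Bird medium with 1.8% glucose. Each genotype is a single strain, so the spread is that between cultures of a strain, and any other difference between the 2 strains cannot be told apart from the loss of prd-2. In RNA from whole cultures, fewer cells of a type and less RNA per cell cannot be told apart.

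A Neurospora strain carries 1 of 2 alternative sequences at the mating type locus, called mat A and mat a. The locus sets which pheromone a strain makes and which receptor it uses: mat A strains use the ccg-4 product as pheromone and sense the pheromone of mat a strains through PRE-1, while PRE-2 is the receptor for the ccg-4 product. Female tissue reaches toward a source of pheromone, and the signal passes through a G protein and a MAP kinase cascade. These genes are best known from nitrogen-limited sexual development rather than from submerged growth in glucose.

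6 of the 7 genes were measured at very low levels in both strains, and mat A-2 was listed at 0 in every mutant culture and in 2 of 3 control cultures. Levels are in FPKM, in which fragments are scaled to transcript length and sequencing depth, and can therefore be set beside each other between genes. All 7 genes were under 1 FPKM in every prd-2 mutant culture, and 5 of them were under 1 FPKM in every control culture. Their summed level was 2.52, 1.94 and 2.95 FPKM in mutant cultures 1 to 3, against 4.56, 4.72 and 3.79 FPKM in control cultures 1 to 3. The median gene of the table stood between 14.3 and 14.6 FPKM in the mutants and between 15.1 and 15.2 FPKM in the controls. The most abundant of the 7, mat A-1, had a mean above that of 20.2% of all genes in the mutants and of 21.6% in the controls.

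The mating type locus was examined first. mat A-1, which encodes a DNA-binding regulator of mating identity, measured 0.740, 0.688 and 0.945 FPKM in mutant cultures 1 to 3, against 2.04, 1.62 and 1.21 FPKM in control cultures 1 to 3. Every mutant value lay below every control value, and the mean in mutants came to 48.7% of that in controls (0.791 ± 0.136 FPKM in mutants, 1.62 ± 0.413 FPKM in controls; SD, n = 3 each). mat A-2 and mat A-3, which act after fertilization, were near the lower end of what was measured. mat A-3 was listed at 0, 0.0613 and 0.118 FPKM in mutant cultures 1 to 3, against 0.163, 0 and 0.423 FPKM in control cultures 1 to 3. These ranges overlap, and each strain holds a culture listed at 0. mat A-2 was listed at 0 in all 3 mutant cultures and in control cultures 1 and 2, and at 0.0608 FPKM in control culture 3. A value for mat A-2 in 1 culture of 6 allows no statement on a difference.

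The pheromone precursor gene ccg-4, first found as a clock-controlled gene, was close to silent in these mat A strains. It was listed at 0.0234, 0.0276 and 0.105 FPKM in mutant cultures 1 to 3, against 0.0975, 0.0809 and 0 FPKM in control cultures 1 to 3. The ranges overlap almost entirely, and the highest value of all was in a mutant culture. Of all genes in the table, 10.7% had a lower mean than ccg-4 in the mutants and 10.6% in the controls. mfa-1 (NCU16992), the pheromone precursor gene named for mating type a, was the more abundant of the 2 precursor transcripts in every culture, although both strains are labelled mating type A. It measured 7.52, 6.71 and 9.36 FPKM in mutant cultures 1 to 3, against 6.44, 8.55 and 7.51 FPKM in control cultures 1 to 3. mfa-1 did not pass the test between strains (log2 fold change 0.06, 95% interval -0.26 to 0.37, limma adjusted p = 0.754).

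The receptor genes stood near mat A-1 in the mutants, where the values of all 3 overlap. In the controls pre-2 overlapped mat A-1, while every value of pre-1 lay below every value of mat A-1. pre-2, which encodes the receptor for the ccg-4 pheromone, measured 0.695, 0.376 and 0.747 FPKM in mutant cultures 1 to 3, against 1.18, 1.47 and 1.03 FPKM in control cultures 1 to 3. All mutant values lay below all control values, and the mean in mutants came to 49.4% of that in controls (0.606 ± 0.201 FPKM in mutants, 1.23 ± 0.222 FPKM in controls; SD, n = 3 each). pre-1, the receptor gene that works in mat A strains, measured 0.709, 0.563 and 0.792 FPKM in mutant cultures 1 to 3, against 0.739, 0.985 and 0.681 FPKM in control cultures 1 to 3. Its ranges overlap, and the mean in mutants came to 85.8% of that in controls (0.688 ± 0.116 FPKM in mutants, 0.801 ± 0.162 FPKM in controls; SD, n = 3 each).

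fmf-1 encodes a putative transcription factor needed for both male and female fertility. It measured 0.354, 0.225 and 0.244 FPKM in mutant cultures 1 to 3, against 0.340, 0.565 and 0.376 FPKM in control cultures 1 to 3. The ranges overlap only through mutant culture 1 and control culture 1, and the mean in mutants came to 64.2% of that in controls (0.274 ± 0.0697 FPKM in mutants, 0.427 ± 0.121 FPKM in controls; SD, n = 3 each).

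**Figure D1:**
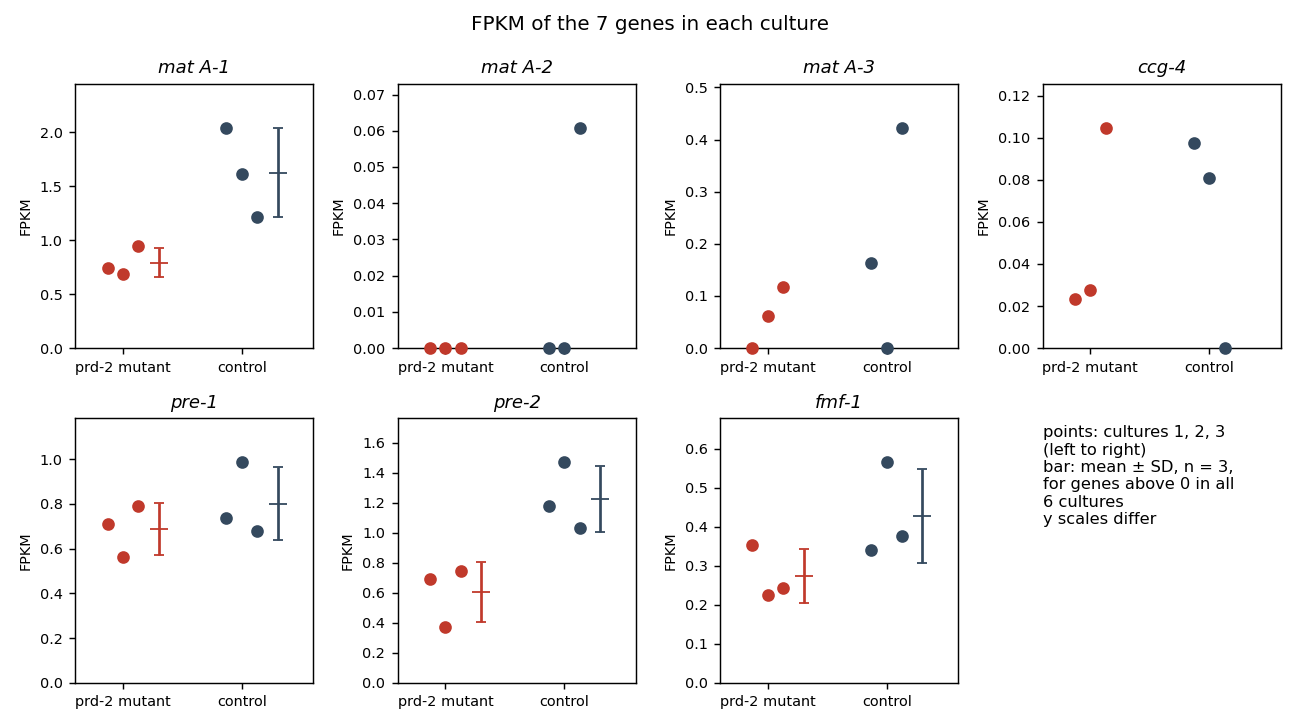
FPKM of each of the 7 genes (linear y axes that start at 0 and differ in scale) in the 3 prd-2 mutant cultures and the 3 control cultures, with the mean and SD for genes above 0 in all 6 cultures. mat A-1 and pre-2 are the 2 genes whose mutant points all lie below their control points, and mat A-2 is above 0 in control culture 3 alone.

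The order of levels was similar but not identical in the 2 strains. In the mutants the order of means was mat A-1, pre-1, pre-2, fmf-1, mat A-3, ccg-4 and mat A-2, and in the controls pre-2 stood above pre-1. In the mutants the values of mat A-1, pre-1 and pre-2 overlapped between neighbours in this order, and so did those of mat A-3 and ccg-4. The step below pre-2, to fmf-1, was clear of overlap in the mutants, as was the step from fmf-1 to mat A-3. In the controls mat A-1 and pre-2 overlapped, while pre-2 was clear of pre-1 and pre-1 was clear of fmf-1. Neighbours from fmf-1 down to mat A-2 overlapped in the controls.

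These low levels rest on few sequenced fragments. The table gives no fragment counts, but low FPKM values of a gene can fall on whole multiples of what a single fragment is worth in that library. After correction for the relative depth of the libraries, the 6 values of 4 of the 7 genes came within 0.05 fragments of whole numbers. For ccg-4 they read as 1, 1 and 4 fragments in mutant cultures 1 to 3, against 4, 3 and 0 in control cultures 1 to 3. For mat A-3 they read as 0, 1 and 2 fragments in the mutants, against 3, 0 and 7 in the controls. Both genes thus rest on 13 fragments over all 6 cultures. No difference between the strains was detected at this depth, which does not show that there is none. fmf-1 read as 13, 7 and 8 fragments in the mutants, against 12, 18 and 12 in the controls. pre-2 read as 24, 11 and 23 fragments in the mutants, 58 in all, against 39, 44 and 31 in the controls, 114 in all. A step smaller by a whole factor would give larger numbers. The step taken was the one, within a range set by each gene's length, that brought the 6 values closest to whole numbers. mat A-1 and pre-1 gave no reading within the tolerance, and mat A-2 was above 0 in too few cultures for one. Of 1097 genes at similarly low levels in the table, 688 (62.7%) gave such a reading.

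**Figure D2:**
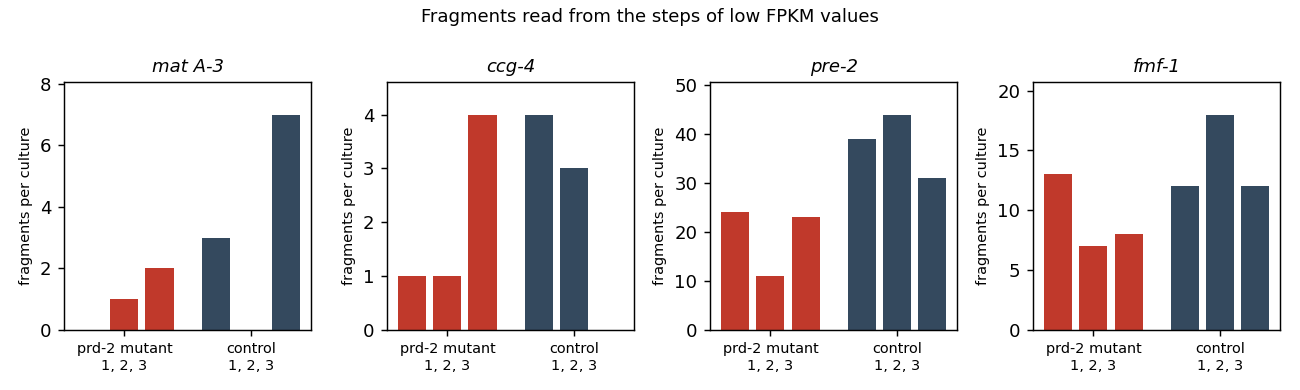
Number of fragments per culture (y axes start at 0 and differ in scale) read from the FPKM steps of mat A-3, ccg-4, pre-2 and fmf-1, for prd-2 mutant cultures 1 to 3 and control cultures 1 to 3. ccg-4 stays at or below 4 fragments in every culture, while pre-2 has 11 to 24 in mutants and 31 to 44 in controls.

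The strains were compared gene by gene with limma on log2(FPKM + 1), over the genes with a mean of at least 1 FPKM. In this fit 3725 of 7797 genes (47.8%) had an adjusted p under 0.05, 23.8% of the tested genes lower and 24.0% higher in the mutant, so a call is common. mat A-1 is the 1 gene of the 7 that passed the minimum, and it passed through its control cultures, since its mutant mean is under 1 FPKM. Its log2 fold change was -0.54 (SE 0.15, 95% interval -0.89 to -0.19, limma adjusted p = 0.0213), lower in 3 of 3 mutant cultures. The call ended with quantile normalization (log2 fold change -0.22, limma adjusted p = 0.221). It also ended when mutant culture 1 (adjusted p = 0.0614), mutant culture 2 (adjusted p = 0.0629) or control culture 2 (adjusted p = 0.0626) was left out, and in a fit blocked on replicate number (adjusted p = 0.0535).

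The other 6 genes were fitted without a minimum, over the 9047 genes with any value above 0, where 21.7% were called lower in the mutant. pre-2 was called lower in that fit (log2 fold change -0.47, SE 0.120, 95% interval -0.76 to -0.19, limma adjusted p = 0.0181), and so was mat A-1 (log2 fold change -0.54, limma adjusted p = 0.0136). The call of pre-2 ended without control culture 2 (adjusted p = 0.0616), in a fit blocked on replicate number (adjusted p = 0.0590) and with quantile normalization (log2 fold change -0.22, adjusted p = 0.192). Addition of 1 to values near 1 FPKM shrinks these estimates. With 0.1 added instead, the log2 fold change was -0.93 (SE 0.221) for mat A-1 and -0.94 (SE 0.265) for pre-2, with adjusted p-values of 0.0134 and 0.0265 by limma.

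The remaining 5 genes did not pass the test in the fit without a minimum. fmf-1 had a log2 fold change of -0.16 (95% interval -0.36 to 0.04, limma adjusted p = 0.171) and pre-1 one of -0.09 (95% interval -0.31 to 0.13, limma adjusted p = 0.463). mat A-3 had a log2 fold change of -0.16 (95% interval -0.47 to 0.15, limma adjusted p = 0.371). ccg-4 had one of -0.01 (95% interval -0.18 to 0.16, limma adjusted p = 0.925), and mat A-2 one of -0.03 (limma adjusted p = 0.737). With 0.1 added in place of 1, the 95% intervals were far wider, from -1.01 to 0.91 log2 units for ccg-4 and from -2.15 to 0.84 log2 units for mat A-3. For single genes the exact permutation test of 3 against 3 cultures cannot go below a two-sided p of 0.1, which mat A-1 and pre-2 reached.

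**Figure D3:**
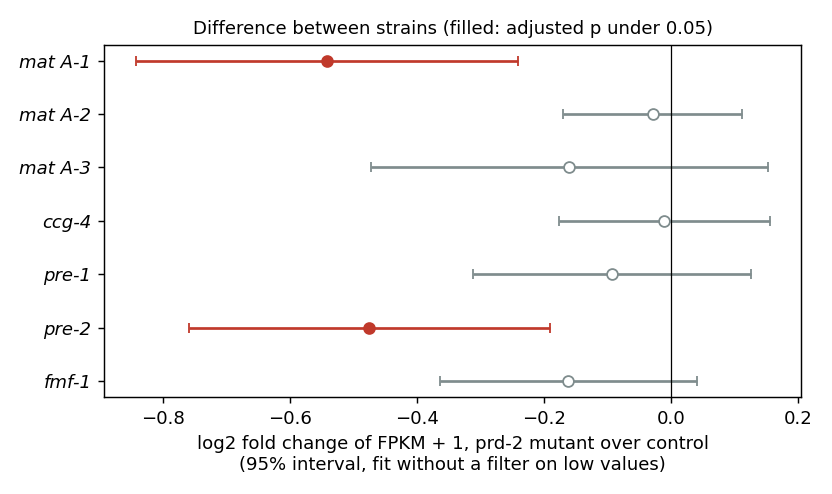
Log2 fold change of FPKM + 1, prd-2 mutant over control (x axis), with its 95% interval, for the 7 genes in the limma fit without a minimum level; filled points have an adjusted p under 0.05. The intervals of mat A-1 (-0.54) and pre-2 (-0.47) end below 0, and the other 5 include it.

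The means of all 7 genes were lower in the mutant as deposited, but the sign turned for ccg-4 and mat A-2 with median centring (0.04 and 0.02 log2 units), and for ccg-4 and pre-1 with quantile normalization (0.02 and 0.15 log2 units). ccg-4 also turned in 4 of the 6 fits that left out a culture, which spanned -0.05 to 0.02 log2 units. Low genes in general leaned the same way. Among the 1426 genes with a mean above 0 and under 1.5 FPKM, 61.4% had a lower mean in the mutant. In that band 14.9% were called lower in the fit without a minimum. The separation of mat A-1 and pre-2, with 3 mutant values below 3 control values, was found in 22.5% of the genes of that band and in 28.1% of all genes with any value above 0. The 2 of 7 genes separated here are close to these shares, so the count is not a result about these 7 genes.

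**Figure D4:**
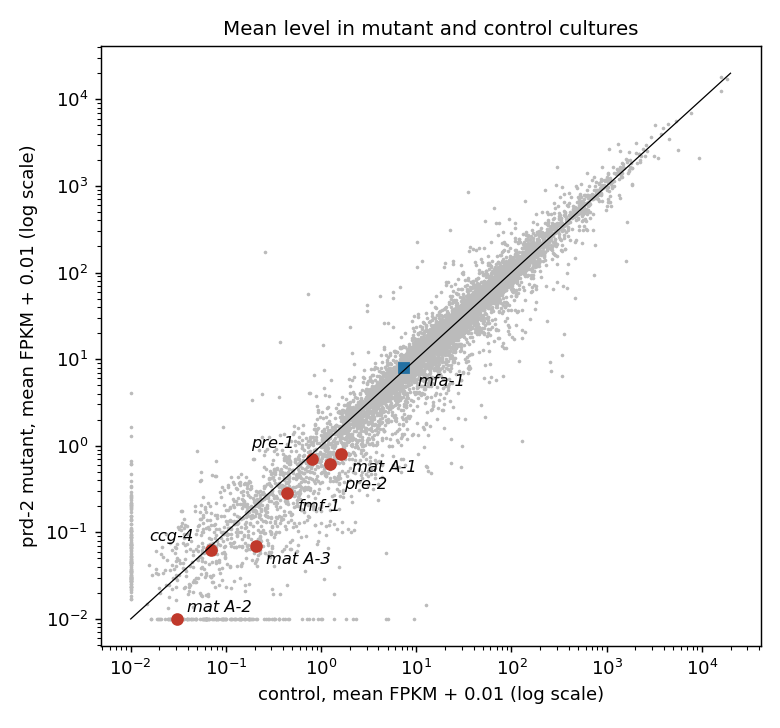
Mean FPKM + 0.01 in prd-2 mutant cultures (y axis, log scale) against control cultures (x axis, log scale) for every gene with a value above 0, with the 7 genes in red, mfa-1 as a blue square and the line of equal levels. The 7 genes lie in the low part of the cloud, ccg-4 and pre-1 close to the line, and mfa-1 well above them on the line.

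The annotated spans of the 7 genes overlap no other annotated gene. NCU01961, the gene beside mat A-3, was higher in the mutant, at 6.00, 6.65 and 6.42 FPKM in mutant cultures 1 to 3 against 3.42, 3.67 and 4.41 FPKM in control cultures 1 to 3 (log2 fold change 0.61 with SE 0.095, adjusted p by limma = 0.00179). It lies at the far end from mat A-1, with mat A-3 and mat A-2 between them, and its direction is opposite to that of mat A-1. NCU14009, on the other side of mat A-1, is annotated as a non-coding RNA and has no FPKM value in these data. The neighbours of pre-2 were NCU05757, called higher in the mutant (log2 fold change 0.38 with SE 0.117, limma adjusted p = 0.0329), and NCU05759, listed at 0 in all cultures. The call of NCU05757 ended on the TPM scale (adjusted p = 0.0502) and in 4 of the 6 fits that left out a culture. Beside pre-1, NCU00142 was called higher (log2 fold change 0.44, limma adjusted p = 0.00375) and NCU00137 did not pass (log2 fold change -0.22, limma adjusted p = 0.0717). Neither neighbour of fmf-1 passed, nor did NCU02499 beside ccg-4, while NCU02501 on its other side was listed at 0 throughout.

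The tested genes most like mat A-1 across the 6 cultures were NCU07330 and NCU00941, with a Pearson r of 0.996 for both and a Spearman rho of 0.943 and 1 (n = 6 cultures, which share the strain difference and the library scaling). Neither NCU07330 nor NCU00941 passed the test between strains (log2 fold changes -0.14 and -0.24, limma adjusted p = 0.0646 and 0.114). An r of at least 0.9 with mat A-1 was found for 720 genes, so this likeness is common.

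Of 15 genes of pheromone signalling, all tested, 4 were called lower in the mutant, none was called higher and 11 did not pass, with a median log2 fold change of 0.03 beside 0.01 over all tested genes. The 4 genes are 26.7% of the list, close to the 23.8% of all tested genes called lower, so the count is not a result about the list. ham-5, the scaffold of the MAK-2 MAP kinase cascade, had the largest fall of the list, to 9.20, 9.43 and 9.61 FPKM in mutant cultures 1 to 3, against 15.8, 14.5 and 15.7 FPKM in control cultures 1 to 3 (log2 fold change -0.65 with SE 0.058, limma adjusted p = 0.000164). adv-1, a transcription factor needed for hyphal fusion and female development, had a log2 fold change of -0.40 (limma adjusted p = 0.00134, SE 0.059) and fell in 3 of 3 mutant cultures. gna-1, the G protein alpha subunit that acts in mating, fell to 97.3, 100.3 and 89.7 FPKM in the mutants, against 119.7, 119.8 and 130.7 FPKM in the controls (log2 fold change -0.36, limma adjusted p = 0.00326). smco-7 was the other gene called lower (log2 fold change -0.31, limma adjusted p = 0.0127). The subunit genes gnb-1 and gng-1 had log2 fold changes of 0.10 (limma adjusted p = 0.27) and 0.11 (limma adjusted p = 0.173). The kinase genes nrc-1, mek-2 and mak-2 and the transcription factor gene pp-1 did not pass either, with log2 fold changes between 0.03 (mak-2) and 0.11 (nrc-1). The spans of mek-2 and mak-2 overlap other genes, which makes their values uncertain.

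Of 12 listed genes of sexual development, 10 were tested and 7 were called lower in the mutant, none higher, with a median log2 fold change of -0.37. The 7 genes are 70.0% of those tested, beside 23.8% called lower over all tested genes, for a list put together with earlier results of these data known. sub-1, ve-1 and nor-1 of the list did not pass, with log2 fold changes of -0.03, -0.11 and 0.22 (limma adjusted p = 0.748, 0.146 and 0.124). app, which encodes an abundant perithecial protein, was listed at 23.2, 6.51 and 4.06 FPKM in mutant cultures 1 to 3, against 372, 336 and 308 FPKM in control cultures 1 to 3 (log2 fold change -5.12, SE 0.509, limma adjusted p = 0.000242); its span overlaps that of NCU04532 and its value is uncertain. asd-1, needed for ascus development, fell to 95.4, 170.9 and 171.4 FPKM in the mutants, against 679, 425 and 304 FPKM in the controls (log2 fold change -1.65, SE 0.327, limma adjusted p = 0.0053). fsd-1, a transcription factor of female development, fell by 0.41 log2 units (limma adjusted p = 0.0059), with the caveat that another gene overlaps it. nox-1, an NADPH oxidase gene needed for female development, fell by 0.32 log2 units (limma adjusted p = 0.0125), and NCU00646 fell by 0.70 log2 units (limma adjusted p = 0.00128). vib-1 and tol, known for vegetative incompatibility, which for tol is the one set off by mating type, fell by 0.52 and 0.27 log2 units (limma adjusted p = 0.000265 and 0.0335). The call of tol ended with quantile normalization and in 4 of the 6 fits that left out a culture. asd-3 and per-1, the polyketide synthase gene of perithecial pigment, had a mean under the minimum of 1 FPKM, and both were called lower in the fit without it (limma adjusted p = 0.00292 and 0.0115). asd-3 measured 0.277 to 0.495 FPKM in the mutants against 1.08 to 1.87 FPKM in the controls, and per-1 0.0900 to 0.576 FPKM in the mutants against 1.07 to 2.16 FPKM in the controls.

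Transcripts used as markers of sexual and of conidial structures were examined as well. Both strains are mating type A, and these levels do not show that such structures were present. The summed level of 5 markers of protoperithecia and perithecia (fsd-1, app, asd-1, asd-3 and per-1) was 132 to 189 FPKM in the mutants and 630 to 1073 FPKM in the controls, with none of them at 0. app, whose value is uncertain, and asd-1 made up 89.7% to 93.9% of that sum in the mutants and 97.2% to 98.0% in the controls. Without app the sum was 109.1 to 183.6 FPKM in the mutants and 321 to 700.3 FPKM in the controls, and without both it was 11.6 to 13.7 FPKM in the mutants and 17.4 to 21.5 FPKM in the controls. The 5 markers were chosen with earlier results of these data known. Of the sexual development list, sub-1, ve-1 and nor-1 are not in the sum and did not pass. The genes nox-1, NCU00646, vib-1 and tol are not in it either and were called lower. The part of the 5 markers in the lower values of mat A-1 and pre-2 was not tested. Of 5 conidiation markers, con-6 was called higher, con-8 and con-10 lower, and eas and fl did not pass, a count to be read beside the 47.8% of all tested genes called in either direction. The call of con-10 ended in 5 of the 6 fits that left out a culture, and the span of con-6 overlaps that of NCU08768. The log2 fold change was 2.51 for con-6 and -0.92 for con-8. The summed level of the 5 conidiation markers was 1356 to 3192 FPKM in the mutants and 1814 to 1992 FPKM in the controls, so the ranges overlap. Most of this sum came from eas and con-8, with means of 1254 and 590 FPKM in the mutants. In the controls their means were 727 and 1121 FPKM. The highest sum belongs to mutant culture 1, where eas, the hydrophobin of the conidial surface, stood at 2382 FPKM, against 634 to 745 FPKM in the other mutants and 664 to 833 FPKM in the controls. The part of conidiation in the values of the 7 genes was not tested either.

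**Figure D5:**
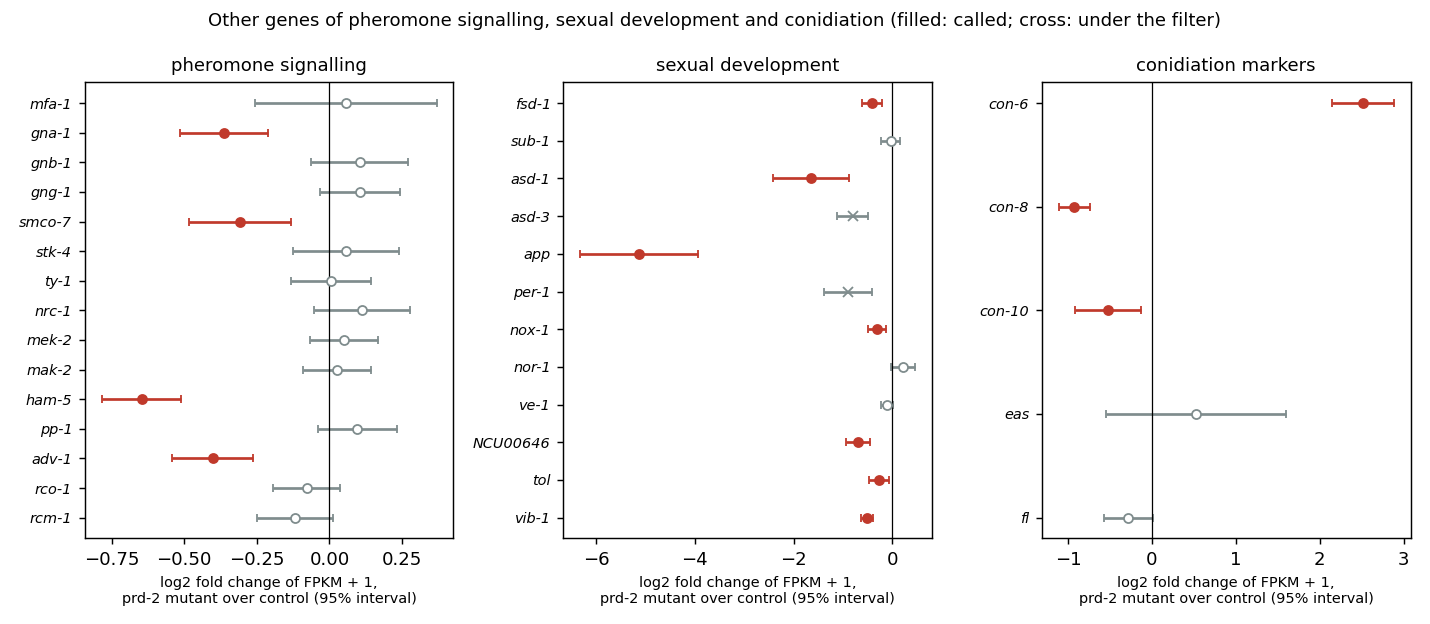
Log2 fold change of FPKM + 1, prd-2 mutant over control (x axes, which differ in scale), with its 95% interval, for genes of pheromone signalling, sexual development and conidiation; filled points have an adjusted p under 0.05 and crosses mark genes under the minimum level. In the left panel 4 genes are filled, all below 0, and in the middle panel 7, with app at -5.12 far from the rest.

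As a check of the labels, NCU01019, taken as prd-2 from knowledge of the study, measured 6.78 ± 0.784 FPKM in the mutants and 26.2 ± 1.31 FPKM in the controls (SD, n = 3 each). Summed FPKM per culture was 664476 to 688885 in the mutants and 657467 to 672543 in the controls, and 7657 to 7681 genes reached 1 FPKM in a mutant culture against 7810 to 7852 in a control culture.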

How the data were processed

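Polyadenylated RNA of 6 cultures was sequenced as directional libraries in 150 bp paired reads, per the labels. The authors deposited FPKM values, a row per gene and a column per culture. STAR and Cuffnorm are named in the submitters' processing notes. Versions, build, annotation, filters and the use of strand are not given in the sources used here, so no coordinates are given. Symbols came from the RefSeq table of assembly NC12 (9729 tags matched).

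The strains were tested with limma 3.58.1 (lmFit and a trended eBayes, R 4.3.3) on log2(FPKM + 1), for genes with a mean of at least 1 FPKM, with Benjamini-Hochberg adjustment over all tested genes and a threshold of 0.05. Fold changes on this scale understate changes of low genes. The values are FPKM, so no count test was run. The model does not use fragment counts, and its p-values for genes that rest on few fragments are uncertain. The limma code was tested on data simulated from genes with a mean of at least 1 FPKM. That test does not cover the fits without a minimum. The code for the fragment readings was tested on simulated low values. Relative depth was read in Python 3.11.15 from genes under 0.15 FPKM in every culture: a single fragment was worth 0.961, 1.13 and 1.08 times as much in mutants 1 to 3 as in control 1, and 1.11 times as much in controls 2 and 3. Absolute depth is unknown.

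The members and gene lists were chosen with earlier results of these data known. Named were the 7 members, the 32 list genes, the annotated neighbours of each member, the 2 tested genes most correlated with a tested member, and prd-2. The band under 1.5 FPKM and the fragment readings were chosen after the values were seen.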

Additional observations from a re-analysis of the deposited data

How the results depend on the processing

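The number of members called was 1 as reported, lower in the mutant. It was 2 without a filter and 2 with a pseudocount of 0.1 and no filter (an alternative chosen after seeing the data). It was 0 with quantile normalization and 0 with the replicate block, and lay between 0 and 1 when each culture in turn was dropped. With the filter 1 member was tested, and without it all 7. Over all tested genes 23.8% were called lower with the filter and 21.7% without it, so these counts are not a result about the 7 genes. With a minimum mean of 5 FPKM no member was left to test, so that alternative gave no value for the members. The replicate block gave mat A-1 an adjusted p of 0.0535 and, without a filter, pre-2 one of 0.0590. It left 4 calls in the pheromone list, 7 in the sexual development list and 3363 genes called. Deviations of same-numbered cultures had correlations of -0.104, -0.175 and 0.0682 over the tested genes. These values do not show whether same-numbered cultures were handled together. Over its alternatives mat A-1 kept its sign, from -0.93 to -0.22 log2 units (adjusted p 0.0107 to 0.221, called in 9 of 14), and so did pre-2, from -0.94 to -0.22 (adjusted p 0.0171 to 0.192, called in 10 of 13). Most of the fits of mat A-1 kept the filter, which it passed through its control cultures, so they are not independent of that choice. The sexual development list had 6 to 9 calls, with 9 only in fits without a filter, which also tested asd-3 and per-1. The pheromone list had 4 to 5 calls and the conidiation list 2 to 3. Genes called numbered 2889 to 3814, with 3725 of 7797 in the fit as reported and 3814 of 9047 without a filter. The cause of these changes was not tested. At 13 fragments each over all 6 cultures, no difference in ccg-4 or mat A-3 was detected, which does not show that there is none.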
